A study of Homo sapiens with 6 samples.

Results

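Tetraspanins are membrane proteins that pass through the membrane several times and gather other proteins (integrins, immunoglobulin superfamily proteins, proteases and receptors) into patches called tetraspanin-enriched microdomains. Through these partners they take part in adhesion, migration, the shedding of surface proteins and the formation of extracellular vesicles, and some of them, such as CD63, CD81 and CD9, are the usual markers of such vesicles. In epithelial cancer cells CD151 is known for its tight binding to laminin-binding integrins, and CD82 as a suppressor of metastasis.

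The genes described here are the loci whose symbol is TSPAN followed by a number, or is CD9, CD37, CD53, CD63, CD81, CD82, CD151, UPK1A, UPK1B, PRPH2 or ROM1. The rule uses names only and found 32 of the 74852 loci listed, none of them joined with another gene in 1 locus. RNA was sequenced from MDA-MB-231 cells, a human triple-negative breast cancer cell line with mesenchymal features. The cells received 2 rounds of transfection with a non-targeting control siRNA (si-CTRL, 3 libraries) or with siRNA against SAM68 (si-SAM68, 3 libraries), and the labels give harvest 24 h after the second round. SAM68 is an RNA-binding protein and splicing regulator encoded by KHDRBS1, and the comparison asked which transcripts change when it is depleted. All libraries come from 1 cell line, and nothing in the labels says whether the replicates were separate cultures, so that the p-values measure the spread between these libraries only.

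The libraries held between 52625492 and 82568487 reads on loci. The values are normalized read counts, that is reads divided by the size factor of the library. KHDRBS1 was at 15660.4, 14483 and 14737 in si-CTRL and at 583, 602 and 670.2 in si-SAM68 (log2 fold change -4.60). In si-SAM68 replicate 2 ribosomal RNA took 15.1% of the reads, against at most 3.17% in the others. The markers VIM, CD44, EGFR, KRT8 and KRT18 of these cells were present in all libraries. Of these, KRT8 and KRT18 had log2 fold changes of 0.31 and 0.35 (limma adjusted p = 0.0436 and 0.0144). The KRT8 call was lost with the replicate number as a block (0.0696), without si-CTRL replicate 3 (0.123) and without any 1 si-SAM68 library (0.106 to 0.138), and the KRT18 call without any 1 si-SAM68 library (0.0536 to 0.0674). Without the eBayes trend both were lost (0.124 and 0.0610). The 4 luminal markers (ESR1, PGR, CDH1 and EPCAM) summed to 8.72 to 18.1 in si-CTRL and 19.1 to 23.0 in si-SAM68, the 5 leukocyte markers to 8.75 to 19.4 and 11.1 to 18.4, and the 3 endothelial markers to 49.4 to 76.2 and 31.3 to 35.7, with PGR at 0 in all libraries. The part of these low levels in the results was not tested.

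Of the 32 tetraspanin genes, 22 reached a mean normalized read count of 10 and were tested. By the limma test with Benjamini-Hochberg adjustment over all 18849 loci tested, 5 of the 22 (22.7%) had an adjusted p-value under 0.05. Of all loci tested, 10.7% did. The tested tetraspanin genes were at higher levels, with a median of the mean normalized read count of 1693 beside 610 over all loci tested. The effect of this difference in level on the shares called, here and below, was not tested. TSPAN2, TSPAN15, TSPAN1 and TSPAN6 rose in si-SAM68 and ROM1 fell, and the other 17 did not pass. In RNA of whole cultures, fewer cells that express a gene and less of its RNA per cell cannot be told apart. By direction, 4.47% of all loci rose and 6.23% fell. The log2 fold change was above 0 for 11 genes and below 0 for 11, with a median of 0.00 beside 0.01 over all loci, and the median absolute log2 fold change was 0.25 beside 0.19. The libraries of the groups did not overlap for 8 genes (36.4%), where 33.9% of all loci did not. Summed over the family, the normalized read count was 79067 ± 3990 in si-CTRL and 82635 ± 4207 in si-SAM68 (SD, n = 3), a difference within the spread of the libraries.

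**Figure D1:**
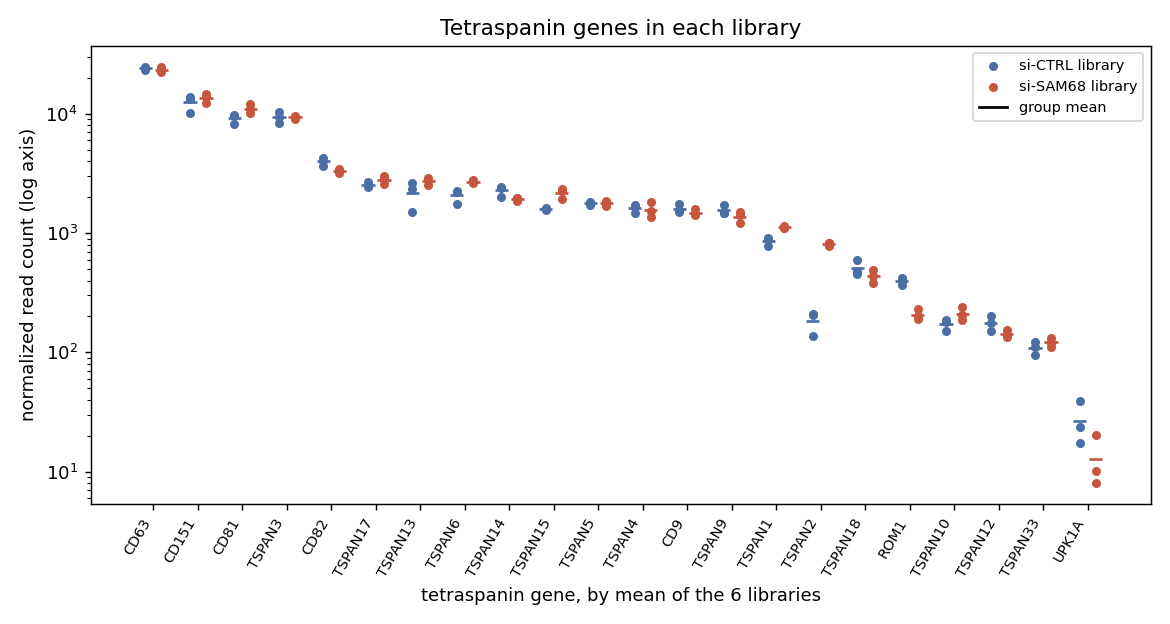
Normalized read count (log axis) of the 22 tested tetraspanin genes in each of the 6 libraries, ordered by mean, with blue points for si-CTRL, red points for si-SAM68 and a line at the group mean. TSPAN2 is the gene whose groups lie farthest apart, with 137 to 210.2 in si-CTRL and 775 to 832 in si-SAM68, while CD63 lies between 22426 and 24893 in all libraries.

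**Figure D2:**
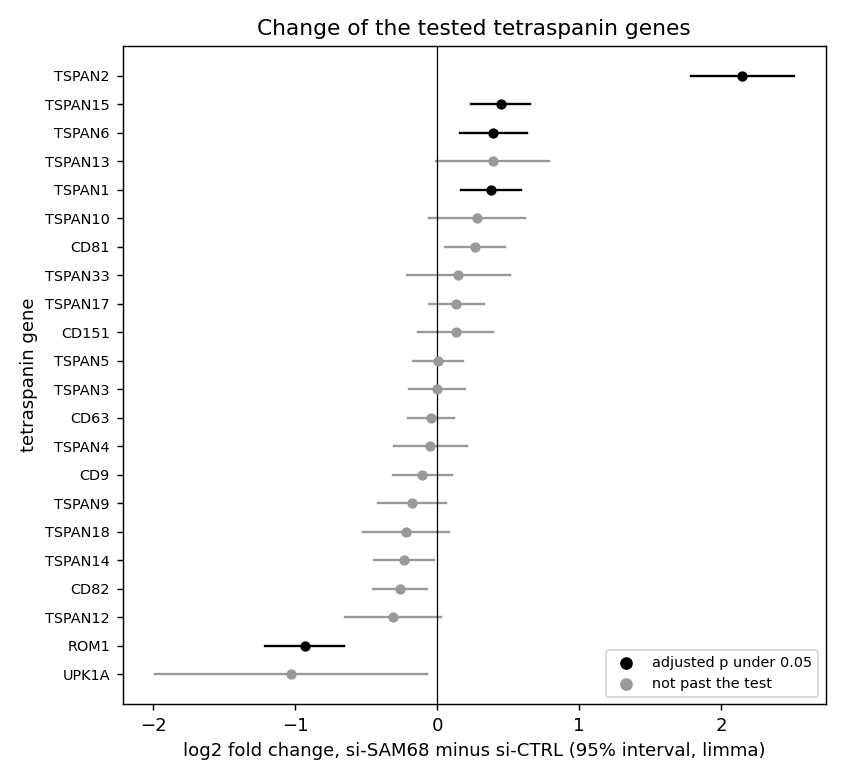
Log2 fold change (si-SAM68 minus si-CTRL) of the 22 tested tetraspanin genes with the 95% interval of the limma fit, where black marks an adjusted p-value under 0.05. TSPAN2 is at 2.15 and ROM1 at -0.93, and the other 3 genes in black lie between 0.38 and 0.45.

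TSPAN2 is the tetraspanin of oligodendrocytes and myelin, and it had the largest log2 fold change of the 22 tested genes. It lies on chromosome 1 (hg19, 115590635 to 115632121). Its normalized read count was 137, 210.2 and 207 in si-CTRL and 775, 832 and 819.9 in si-SAM68, from 110 to 218 reads per library in the first group and from 734 to 905 in the second. The lowest si-SAM68 library was far above the highest si-CTRL library. The log2 fold change was 2.15 (95% interval 1.79 to 2.51, limma adjusted p = 0.000182), which is 4.43-fold. Leaving out any 1 library kept it between 1.95 and 2.25, with an adjusted p-value of at most 0.00467. TSPAN7, the other tetraspanin known mainly from neurons, was at 0 reads in all 6 libraries.

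Levels per length of transcript place TSPAN2 in the order of the family. With the longest coding transcript of each gene in GENCODE 29 as its length, TSPAN2 was at 58.2 ± 13.0 normalized reads per kb in si-CTRL, place 21 of the 22 genes, and at 255 ± 9.57 in si-SAM68 (SD, n = 3), place 15. With coding length alone the places were 18 and 16. CD63 held the first place at 19669 ± 532 reads per kb in si-CTRL, followed by CD151 at 7556 ± 1186 and CD81 at 6069 ± 567, and the libraries of these last genes overlapped. CD82 (1744 ± 150.2) and TSPAN3 (1455 ± 156) came next and also overlapped, and in all 11 of the 21 neighbouring pairs in the order overlapped in si-CTRL. TSPAN14 was in place 16 by its longest transcript, which carries a very long 3′UTR, and in place 7 by coding length, so that its place depends on the transcript taken.

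The siRNAs of the SAM68 pool are shown because their short 5′ guide sequence can also pair with other transcripts. They are given as the sense strand, with the 7 letters in capitals that a transcript must hold to match guide positions 2 to 8.
siSAM68_1: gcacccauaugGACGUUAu
siSAM68_2: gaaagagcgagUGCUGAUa
siSAM68_3: uaugauggaugAUAUCUGu
siSAM68_4: aaagaucucugUAUUGGGa
All 4 were found whole in the coding sequence of KHDRBS1. With the longest GENCODE 3′UTR taken for each gene, 5 of the 22 tested tetraspanin genes (22.7%) held a match of at least 1 siRNA. Of all 19133 genes with a 3′UTR, tested here or not, 26.2% did. TSPAN2 holds 1 match, of siSAM68_3, and the 7 letters in capitals stand in this stretch of its 3′UTR.
TSPAN2: atatatatATATCTGtatagaca
The other matches were in TSPAN3, TSPAN9, TSPAN14 and UPK1A. Of these 5 genes only TSPAN2 passed the adjusted threshold, and it rose. The others had log2 fold changes below 0, at -1.03 for UPK1A, -0.24 for TSPAN14, -0.18 for TSPAN9 and -0.003 for TSPAN3. TSPAN15, TSPAN1, TSPAN6 and ROM1 held none. The part of such matches in the values was not tested.

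ROM1 fell. It encodes a protein of the rims of photoreceptor discs, where it pairs with the tetraspanin PRPH2. Its normalized read count was 366, 422 and 394 in si-CTRL and 229.7, 189 and 199.95 in si-SAM68, so that all si-SAM68 libraries were below all si-CTRL libraries. The mean went from 394 ± 28.04 to 206 ± 20.9 (SD, n = 3), a log2 fold change of -0.93 (95% interval -1.21 to -0.65, limma adjusted p = 0.00225). Without any 1 library the log2 fold change was between -1.01 and -0.87 and the adjusted p-value at most 0.0207. ROM1 (chromosome 11, 62380213 to 62382590, hg19) shares 25 bases with EML3, whose log2 fold change was -0.08 (adjusted p = 0.640). Its partner PRPH2 had 5 reads in all, 0 in the si-CTRL libraries and 1, 4 and 0 in si-SAM68, too few to compare.

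The uroplakins UPK1A and UPK1B build the plaques of the bladder surface. UPK1A was at 38.7, 17.4 and 23.8 in si-CTRL and at 8.06, 10.1 and 20.1 in si-SAM68, from 8 to 31 reads per library. The highest si-SAM68 library was above the lowest si-CTRL library. Its log2 fold change of -1.03 (95% interval -1.99 to -0.07) passed the thresholds of the study (fold change of 1.5 or more, unadjusted p-value not above 0.05) but not the adjusted threshold (limma adjusted p = 0.158). By those thresholds TSPAN2 was higher and ROM1 and UPK1A were lower, 3 of 22 genes (13.6%). Of all loci tested 7.67% passed, 2.83% higher and 4.83% lower. Only the cut-offs are those of the study. The p-values and fold changes are those of the limma fit, so these are not the calls of the study itself. UPK1B had 4 reads in all.

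TspanC8 tetraspanins are the partners of ADAM10, the protease that cuts Notch, cadherins and other surface proteins near the membrane. They bring ADAM10 out of the endoplasmic reticulum, and each is thought to direct it to other substrates. All 6 were tested, and TSPAN15 rose while the other 5 did not pass. TSPAN15 (chromosome 10, 71211226 to 71267423, hg19), which is known for directing ADAM10 to N-cadherin, was at 1581, 1559 and 1625 in si-CTRL and at 2353, 2237 and 1929 in si-SAM68. The groups did not overlap, and si-SAM68 replicate 3 was the nearest to the control. The log2 fold change was 0.45 (95% interval 0.24 to 0.65, limma adjusted p = 0.0159). It kept its direction without any 1 library (0.39 to 0.53), but the adjusted p-value was 0.0654 and 0.0782 when si-SAM68 replicates 1 and 2 were left out.

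Of the other TspanC8 genes, TSPAN14 was at 2007, 2408 and 2447 in si-CTRL and at 1875, 1968 and 1963 in si-SAM68. The groups did not overlap, but the difference did not pass (log2 fold change -0.24, 95% interval -0.45 to -0.03, limma adjusted p = 0.142). Without si-CTRL replicate 1, the lowest control library, its adjusted p-value was 0.00949 at a log2 fold change of -0.33. TSPAN17 (0.13), TSPAN10 (0.28), TSPAN33 (0.15) and TSPAN5 (0.01) had log2 fold changes with intervals that include 0 and groups that overlap, and for TSPAN5 the interval was -0.17 to 0.18.

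ADAM10 itself rose, from 6153, 6347 and 6446 in si-CTRL to 7878, 8238 and 7804 in si-SAM68 (log2 fold change 0.34, limma adjusted p = 0.0156). The 3 si-SAM68 libraries were above all control libraries. Its adjusted p-value was 0.0509, 0.0944 and 0.0596 when si-SAM68 replicate 1, 2 or 3 was left out, at log2 fold changes of 0.31 to 0.35 over all libraries left out. ADAM17, the related shedding protease, rose by 0.55 on the log2 scale, from 1784, 1551 and 1512 to 2275, 2384 and 2398 (limma adjusted p = 0.00574, at most 0.0420 with 1 library left out). As a share of the 6 TspanC8 genes on the scale per coding length, TSPAN15 took 18.003 to 19.1% in si-CTRL and 22.4 to 25.5% in si-SAM68. Per longest transcript its share was 34.4 to 35.9% and 39.5 to 42.2%. On neither scale did the groups overlap for TSPAN15. The share of TSPAN14 was lower without overlap on both scales, at 26.4 to 30.8% and 22.1 to 24.8% per coding length. Per longest transcript that of TSPAN5 was lower too, at 19.4 to 20.2% and 15.4 to 18.8%. Shares add up to a whole, so that a rise of any gene lowers those of the others.

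**Figure D3:**
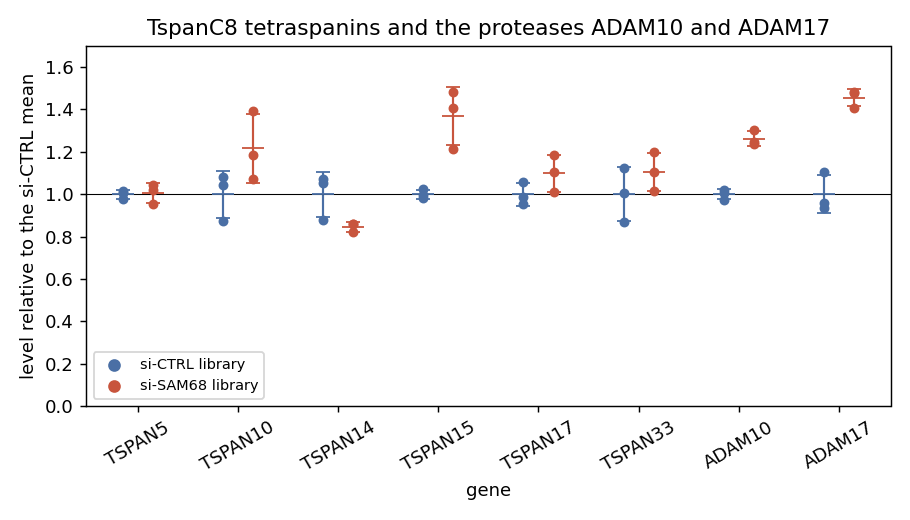
Level of the 6 TspanC8 tetraspanins and of ADAM10 and ADAM17 in each library, divided by the si-CTRL mean of the gene, with si-CTRL in blue, si-SAM68 in red, and bars for the mean ± SD of 3 libraries. TSPAN15, ADAM10 and ADAM17 lie above 1 in all si-SAM68 libraries without overlap with si-CTRL, TSPAN14 lies below 1, and the other 4 genes overlap.

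CD63, CD81 and CD9 are the tetraspanins most used as vesicle markers, CD63 being mainly in late endosomes and lysosomes and CD81 and CD9 mainly at the cell surface. None of the 3 passed the test. CD63 was at 24280.5, 23581 and 24893 in si-CTRL and at 24860.1, 23339 and 22426 in si-SAM68. The groups overlapped, and the interval of the log2 fold change was -0.21 to 0.12. CD9 had a log2 fold change of -0.11 (95% interval -0.31 to 0.10), also with overlap.

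CD81, which also serves as a receptor of hepatitis C virus, was at 8234, 9788 and 9655 in si-CTRL and at 12137, 11035 and 10132 in si-SAM68. All si-SAM68 libraries were above the control libraries, but the difference did not pass over all loci (log2 fold change 0.27, 95% interval 0.05 to 0.48, limma adjusted p = 0.105). Of the 15 genes listed for the making of exosomes, among them SDCBP, PDCD6IP, TSG101 and RAB27A, all were tested and none passed. Their log2 fold changes were between -0.24 and 0.31, with a median of -0.05.

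Among the tetraspanins tied to integrins and motility, TSPAN1 rose, CD151, CD82 and TSPAN4 did not pass, and TSPAN8 was at 0 reads in all libraries. CD151 was at 10269, 13459 and 13856 in si-CTRL and at 14745, 13763 and 12413 in si-SAM68. The groups overlapped, with si-CTRL replicate 1 as the lowest library, and the log2 fold change was 0.13 with it and -0.01 without it. CD82 was at 3626, 4046 and 4307 in si-CTRL and at 3440.3, 3343 and 3195 in si-SAM68. All si-SAM68 libraries were below the control libraries (log2 fold change -0.26, 95% interval -0.45 to -0.07), yet the limma adjusted p-value was 0.0810. It was 0.00854 without si-CTRL replicate 1, and DESeq2 on the recovered reads gave 0.0429. TSPAN4, a tetraspanin of the retraction fibres that migrating cells leave behind, had a log2 fold change of -0.05 (95% interval -0.30 to 0.21).

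TSPAN1 is known mainly from secretory epithelia. It was at 916, 776 and 901 in si-CTRL and at 1137, 1108 and 1113 in si-SAM68, with no overlap (chromosome 1, 46640749 to 46651634, hg19). The log2 fold change was 0.38 (95% interval 0.16 to 0.59, limma adjusted p = 0.0343) and stayed between 0.30 and 0.42 with 1 library left out. The call held when si-CTRL replicate 1 was left out (0.0103) and was lost without each of the others, with adjusted p-values of 0.0998 and 0.0655 for si-CTRL replicates 2 and 3 and of 0.0999, 0.113 and 0.116 for si-SAM68 replicates 1, 2 and 3. The locus shares 1419 bases with that of PIK3R3, a gene of the other strand, which rose by 0.63 on the log2 scale (limma adjusted p = 0.00271). The labels give a stranded library, but whether strand was used in counting is not given in the sources used here. Whether reads of this stretch were told apart in the deposited values is therefore not known.

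The partners of these proteins were taken from lists of 62 genes in 10 groups, of which 50 were tested. Of the 50, 7 rose and 2 fell (18% called, where 10.7% of all loci were), with a median log2 fold change of 0.01. The lists were written with earlier results of these data known, so the 2 shares cannot be compared as independent. Of the integrins, ITGB4, the subunit found in the hemidesmosome complexes that CD151 joins, rose from 409, 416 and 328 to 873, 835 and 659 (log2 fold change 1.03, limma adjusted p = 0.00242, at most 0.0207 with 1 library left out). The highest control library was below the lowest si-SAM68 library. The other 5 integrin subunits did not pass, and ITGB1, the common chain of most laminin-binding integrins, had a log2 fold change of 0.03 (adjusted p = 0.833). IGSF8 (0.14, adjusted p = 0.322) and PTGFRN (0.32, adjusted p = 0.0633), the immunoglobulin superfamily proteins that bind CD9 and CD81 directly, did not pass either.

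Among the other partners, ICAM1, an adhesion molecule for leukocytes that shares its locus with ICAM4, fell from 7059, 5928 and 5439 to 3713, 4266 and 3689.7 (log2 fold change -0.65, limma adjusted p = 0.00588, at most 0.0452 with 1 library left out). HBEGF, the growth factor precursor that CD9 binds, fell from 2037, 1286 and 1651 to 902, 1059.7 and 961 (log2 fold change -0.75, limma adjusted p = 0.0147). For both genes all si-SAM68 libraries were below the control libraries. The HBEGF call was lost without si-SAM68 replicate 1 (0.0686) or 3 (0.0785). Without the eBayes trend the calls of HBEGF (0.0728), ADAM10 (0.0610), NOTCH2 (0.134), L1CAM (0.125), CDH2 (0.126) and MET (0.0804) were lost, 6 of the 9 partner calls.

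Of the 9 ADAM10 substrates tested, 3 rose, where 4.47% of all loci did. This list too was written with earlier results of these data known. All 3 calls depended on single libraries and on the filter and the trend of the fit. They were NOTCH2, the receptor (log2 fold change 0.51, limma adjusted p = 0.0396), L1CAM, an adhesion molecule of neurons and carcinomas (0.39, 0.0397), and CDH2, which is N-cadherin (0.31, 0.0447). CDH2 was at 26951, 23469 and 22319.6 in si-CTRL and at 29709, 30816 and 29336 in si-SAM68. Its groups did not overlap, but the call held only when si-CTRL replicate 1 was left out (0.00195), with 0.109 and 0.142 without si-CTRL replicates 2 and 3 and 0.111, 0.163 and 0.128 without si-SAM68 replicates 1, 2 and 3, and with the replicate number as a block the adjusted p-value was 0.0592. NOTCH2 lost the call without si-CTRL replicate 3 (0.0924) or si-SAM68 replicate 1, 2 or 3 (0.0823, 0.139 and 0.0970). L1CAM lost it without si-CTRL replicate 2 or 3 (0.0505 and 0.119) or si-SAM68 replicate 1 or 2 (0.134 and 0.131). MET, the receptor of hepatocyte growth factor, rose by 0.44 (limma adjusted p = 0.0178) and lost the call without si-CTRL replicate 2 or 3 (0.0509 and 0.0620) or si-SAM68 replicate 2 or 3 (0.0849 and 0.0829).

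**Figure D4:**
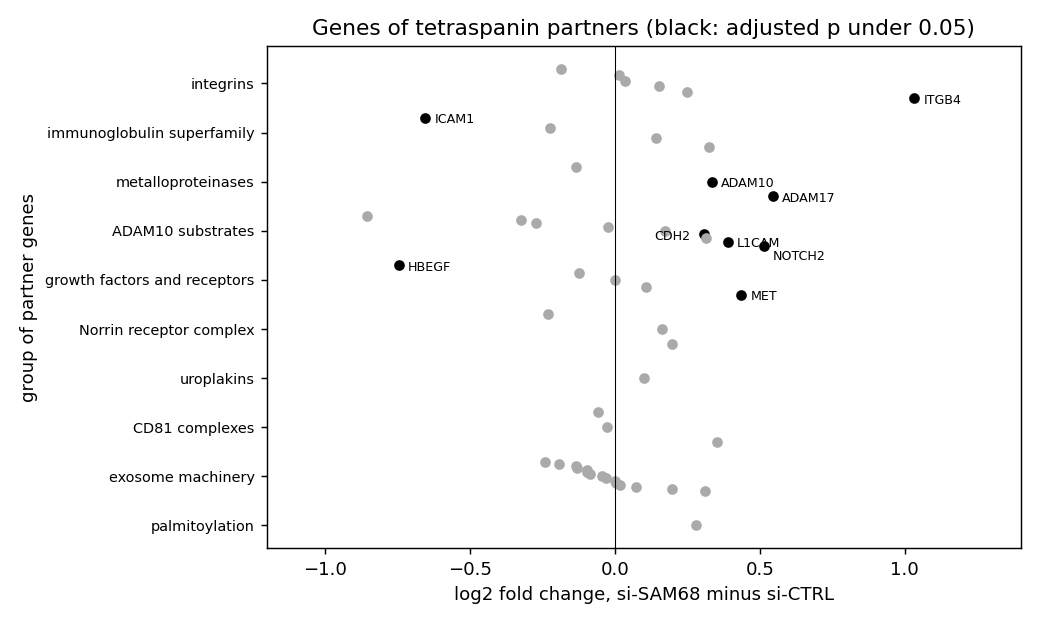
Log2 fold change (si-SAM68 minus si-CTRL) of the 50 tested genes of tetraspanin partners, in 10 groups, where black points with names have a limma adjusted p-value under 0.05. ITGB4 lies farthest to the right at 1.03, HBEGF at -0.75 is the leftmost black point, and the 15 genes of exosome machinery lie between -0.24 and 0.31.

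TSPAN12 is the tetraspanin of the Norrin receptor, where it helps FZD4 to signal in retinal vessels. It was at 152, 176 and 201 in si-CTRL and at 134, 136 and 154 in si-SAM68. The highest si-SAM68 library was just above the lowest control library, and the log2 fold change was -0.31 (95% interval -0.65 to 0.03, limma adjusted p = 0.221). FZD4 (-0.23), LRP5 (0.16) and LRP6 (0.20) did not pass, and the ligand NDP was at 0 in all libraries.

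Of the 8 tetraspanins of less settled role, 5 were tested and TSPAN6 rose. TSPAN6, which has been linked to endosomal sorting, was at 1754, 2219 and 2245 in si-CTRL and at 2712, 2623 and 2799 in si-SAM68 (X chromosome, 99882106 to 99892101, hg19). The groups did not overlap, and si-CTRL replicate 1 was the lowest library by far. The log2 fold change was 0.40 (95% interval 0.16 to 0.63, limma adjusted p = 0.0399). The call held without si-CTRL replicate 1 (0.0181, at a log2 fold change of 0.28) or replicate 2 (0.0455), and was lost without si-CTRL replicate 3 (0.0508) and when leaving out si-SAM68 replicates 1, 2 and 3 (0.109, 0.103 and 0.153).

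TSPAN13 was at 1491, 2327 and 2637 in si-CTRL and at 2535, 2781 and 2920.0 in si-SAM68, with overlap (log2 fold change 0.39, limma adjusted p = 0.193). Without si-CTRL replicate 1 its log2 fold change was 0.15. TSPAN3 was at 10426, 8412 and 9389.7 and at 9404, 9573 and 9088, within the spread of the control libraries, with an interval of -0.20 to 0.19. TSPAN9, known from platelets, had a log2 fold change of -0.18 (95% interval -0.41 to 0.06), and TSPAN18, a tetraspanin of endothelial cells, one of -0.22 (95% interval -0.52 to 0.08). The TSPAN18 locus shares 46522 bases with TP53I11 of the other strand, which fell by 0.58 on the log2 scale (limma adjusted p = 0.00706). As for TSPAN1, whether reads of the shared stretch were told apart is not known. In all, 10 of the 22 tested tetraspanin loci shared bases with another tested locus, CD151 among them. TSPAN17 was at 2701, 2521 and 2425 in si-CTRL and at 3016, 2820.4 and 2570.4 in si-SAM68, with groups that overlapped.

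**Figure D5:**
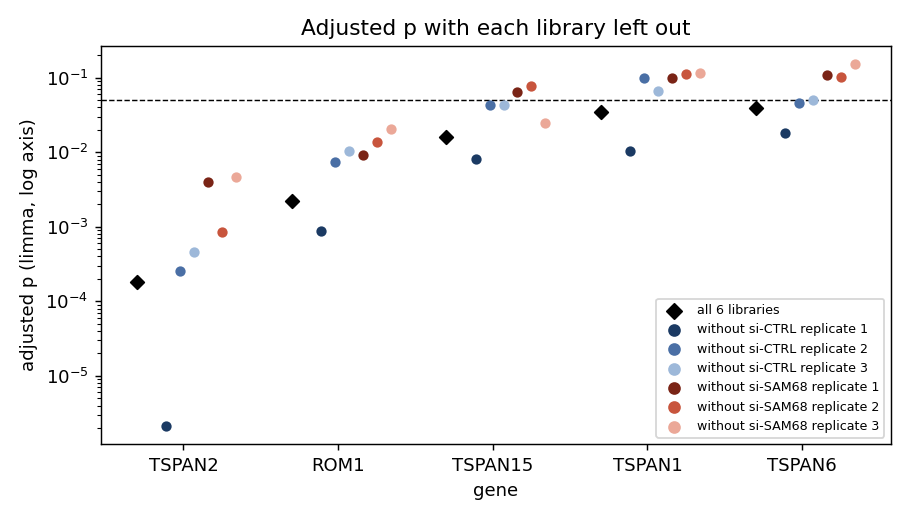
Adjusted p-value (limma, log axis) of the 5 tetraspanin genes that passed, with all 6 libraries (diamonds) and with each library left out in turn (points), and a dashed line at 0.05. TSPAN2 and ROM1 stay below the line in all 6 cases, TSPAN15 in 4, TSPAN6 in 2 and TSPAN1 in 1.

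Much of the spread within si-CTRL came from replicate 1, which had the fewest reads. It was the control library farthest from the median of the controls for 16 of the 22 tested tetraspanin genes (72.7%), where over all loci tested this was so for 54.9%.

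The 10 genes that were not tested are mostly those of other tissues. TSPAN7, TSPAN8, TSPAN11 and the leukocyte tetraspanin CD53 had no read in any library, which allows up to 2.76 to 3.75 normalized reads (3 reads in the deepest and the shallowest library, counting error only). CD37, also of leukocytes, had 1 read in all, TSPAN19 had 4, TSPAN16 had 16 and TSPAN32 had 49. TSPAN32 was at 11.2, 6.78 and 8.56 in si-CTRL and at 7.05, 4.60 and 13.4 in si-SAM68, and its groups overlapped.

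TM4SF1 belongs to the L6 family, whose members have the same number of membrane spans but are not tetraspanins, although TM4SF1 is found in the same microdomains. It fell from 4923, 4424 and 5607 to 2325, 2924 and 2943 (log2 fold change -0.87, limma adjusted p = 0.00233, at most 0.0158 with 1 library left out). All si-SAM68 libraries were below the control libraries. Of the 6 L6 family genes listed, 3 were tested and TM4SF18 and the joined locus of TM4SF19 did not pass.

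By position, 7 of the 32 genes lie on chromosome 11 and 6 on chromosome 12. CD151 and TSPAN4 are neighbours on chromosome 11 with 3989 bases between their loci, and neither passed the test. In the 250 bases before the start of transcription in RefSeq (GRCh38.p14), the letters GGGCGG, counted on both strands, were found in at least 1 promoter of 13 of the 17 tested genes with an entry there (76.5%). Of the 11113 genes of all loci tested that have an entry, 72.8% held them. TSPAN2 held 5 such matches at a GC content of 79.2%, ROM1 held 3, TSPAN15 held 2 and TSPAN1 held 0, while the 2 promoters of TSPAN6 held 0 and 1 at GC contents of 36.4% and 45.2%, and TATAAA was found at none of these 5 genes.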

How the data were processed

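RNA with polyA tails was sequenced from 1 end, and the series has 1 table. In it the authors deposited a signal, which is the read number of a FAST DB locus (hg19) over the DESeq2 size factor of the library. The submitters' processing notes name STAR 2.4.0, SAMtools, Picard, FastQC and DESeq2. The labels give a stranded library, but use of strand in counting is not given in the sources used here. The labels and the paper differ in harvest time, medium and extraction kit, and the labels were followed.

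Groups and replicate numbers came from the sample titles. limma 3.58.1 in R 4.3.3 (lmFit, eBayes with a trend) was run on log2(normalized read count + 1) over the 18849 loci that reached a mean of 10, without a replicate term, with Benjamini-Hochberg adjustment over all of them. Fold changes are on that scale, which understates the change of low genes. Each value is a whole multiple of a step that is fixed within its library (within 0.01 for 100% of the values), which gives back the reads, and edgeR 4.0.16 and DESeq2 1.42.0 were run on these reads as alternatives. They called 2026 and 2811 loci at an adjusted p-value under 0.05, where limma called 2017. DESeq2 left 2574 loci without an adjusted p-value.

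The members, the partner lists and the tests were chosen with earlier results of these data known. Full statistics are given for tetraspanins that passed either threshold, values in each library also for the 6 tested members with the highest mean, and partners are named when they passed, besides ADAM10, ITGB1, IGSF8 and PTGFRN. CD82, TSPAN12, TSPAN13, TSPAN14, TSPAN32, PIK3R3, TP53I11, EML3, TM4SF1 and the other genes named beyond this rule were chosen after their values were seen. Deviations from the group means correlated at 0.105, 0.231 and 0.125 between libraries of the same replicate number and at -0.125 to 0.007 otherwise. The numbers may therefore pair the libraries, but the main fit ignored this, and its p-values and intervals are unpaired. Pairing entered only in the alternative with a replicate block. Replicates differed by more than sampling noise (chi-square per degree of freedom of at least 12.6). This value was 386 and 388 for the pairs with si-SAM68 replicate 2 and 20.3 for the other si-SAM68 pair. Within si-CTRL it was 12.6 to 79.1. The part of the ribosomal RNA of si-SAM68 replicate 2 in this was not tested. On simulated counts for the same comparison (18849 loci, 200 changed), limma found 152 of the 200 with 15 unchanged loci called. The share that limma finds at the log2 fold changes of the tetraspanin genes reported here was not tested.

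Sequences and lengths came from GENCODE 29 and RefSeq, and the siRNAs from the supplement of the study.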

Additional observations from a re-analysis of the deposited data

How the results depend on the processing

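The results were recomputed with a pseudocount of 0.1 or 5, with no filter or a minimum mean of 50, with TMM scaling, without the eBayes trend, with a replicate block, with each library left out, and with edgeR and DESeq2 on the recovered reads. KHDRBS1 kept its call in all of them. The number of tetraspanins that rose by the adjusted threshold (4) was 1 without the trend, where TSPAN15, TSPAN1 and TSPAN6 had adjusted p-values of 0.0619, 0.0793 and 0.115, and 1 to 4 with 1 library left out. The number that fell (1) was 2 with DESeq2, the second being CD82, and 1 to 3 with 1 library left out, where CD82 and TSPAN14 joined ROM1 without si-CTRL replicate 1. By the thresholds of the study the number lower (2) was 1 with a minimum mean of 50, which leaves out UPK1A. It was also 1 with DESeq2, which gave UPK1A no adjusted p-value, and 1 to 2 with 1 library left out. Without any filter TSPAN6 had an adjusted p-value of 0.0573. Over all loci the calls with 1 library left out numbered between 625 and 2839, beside 2017 with all libraries, and 899 without the trend. Some log2 fold changes changed sign with 1 library left out. They ranged from -0.0052 to 0.21 for CD151, -0.16 to 0.044 for TSPAN4, -0.081 to 0.074 for TSPAN3 and -0.018 to 0.045 for TSPAN5. The 2839 calls came without si-CTRL replicate 1 and the 625 without si-SAM68 replicate 3. Each fit with 1 library left out has fewer degrees of freedom, and the cause of these changes was not tested. With the replicate block, which pairs the libraries, 4 tetraspanins rose and 1 fell, as without it, with adjusted p-values of 0.0492 for TSPAN1 and 0.0485 for TSPAN6, and KHDRBS1 was at -4.60. Precision is limited by 3 libraries per group.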
